A study of Homo sapiens with 12 samples.

Results

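A set of 10 skeletal muscle genes was followed in cardiomyocytes grown on a conductive and on a non-conductive scaffold. They are the developmental myosin heavy chains MYH3 and MYH8, the fast regulatory light chain MYLPF, the fast troponin subunits TNNT3, TNNI2 and TNNC2, the fast actinin ACTN3, the slow-fibre myosin-binding protein MYBPC1, and the myogenic factors MYOD1 and MYOG. These 10 genes were chosen by name among the 60583 gene names of the table, and all 10 were found there. The cells were cardiomyocytes derived from RUES2, an established human embryonic stem cell line labelled wild type, and were kept for 3 days from day 50 on an electrospun scaffold. On the conductive side the fibres were 9.75% PEDOT:PSS/PVA, a mix of the electrically conducting blend PEDOT:PSS with polyvinyl alcohol, called PEDOT here. The control scaffold was 8% polyvinyl alcohol, called PVA. All samples come from 1 cell line, so they say nothing about variation between donors. Each scaffold had 3 biological replicates with 2 technical libraries each, which gave 12 libraries of ribodepleted total RNA.

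Heart and skeletal muscle build the same sarcomere from different members of the same gene families. A thick filament of myosin heavy and light chains pulls on a thin filament of actin, which the troponin complex switches on when calcium binds. Fast skeletal fibres use TNNT3, TNNI2, TNNC2, MYLPF and ACTN3 where the heart uses TNNT2, TNNI3, TNNC1, MYL2 or MYL7, and ACTN2, and fetal heart also uses TNNI1, the slow skeletal troponin I. MYOD1 and MYOG are transcription factors that commit cells to skeletal muscle and drive their differentiation, and they are not part of the known heart programme.

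The libraries held 19.1 to 31 M counts (median 24.1 M), and the 2 technical libraries of a replicate summed to 44.5 to 57.5 M. The cardiomyocyte markers TNNT2, MYH6, ACTN2, NKX2-5, RYR2, MYL7, NPPA and TBX5 summed to 19917 to 29436 CPM (counts scaled to a common library size) in PEDOT libraries and 19211 to 30104 CPM in PVA libraries. A list of 8 skeletal myoblast markers, which includes MYOD1 and MYOG, summed to 1.21 to 3.41 CPM in PEDOT libraries and 1.60 to 3.11 CPM in PVA libraries. Of its members, PAX7 and MYF5 had 0 counts in all 12 libraries, MYMK, CHRNG and CHRND had 12, 9 and 38 counts in all, and MYOD1 (13 to 63), MYOG (6 to 17) and CDH15 (1 to 15 counts) were counted in every library. The labelled cell type thus had its markers, and those of skeletal myoblasts were low or at 0.

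Skeletal and heart genes of 1 family are similar in sequence, which bears on how reads are assigned, and 3 pairs are shown for that reason. Coding sequences (GENCODE release 29) matched at 71.1% of aligned bases between ACTN3 and ACTN2, 75.2% between MYH3 and MYH6, and 63.9% between TNNT3 and TNNT2. The 90 coding bases below hold the longest identical run of each pair, 27, 50 and 24 bases, and capitals mark the bases that differ. They start at coding base 1190 of ACTN3 and 1040 of ACTN2, 338 of MYH3 and 335 of MYH6, and 522 of TNNT3 and 618 of TNNT2.

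ACTN3: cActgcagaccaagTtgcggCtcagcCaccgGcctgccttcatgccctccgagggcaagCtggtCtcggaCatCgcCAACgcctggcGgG
ACTN2: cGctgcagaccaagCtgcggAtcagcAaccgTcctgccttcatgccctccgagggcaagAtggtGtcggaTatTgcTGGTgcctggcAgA
MYH3: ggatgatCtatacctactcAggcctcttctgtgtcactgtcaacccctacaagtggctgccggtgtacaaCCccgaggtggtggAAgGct
MYH6: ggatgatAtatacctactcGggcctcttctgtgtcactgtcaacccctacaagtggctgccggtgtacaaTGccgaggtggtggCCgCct
TNNT3: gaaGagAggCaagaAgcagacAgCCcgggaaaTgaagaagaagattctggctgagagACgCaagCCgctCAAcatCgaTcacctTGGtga
TNNT2: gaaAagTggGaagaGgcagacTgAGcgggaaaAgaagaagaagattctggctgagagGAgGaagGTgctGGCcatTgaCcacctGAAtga

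The windows differed at 15, 7 and 21 of 90 bases in these 3 pairs. A read lying wholly inside an identical run matches both genes, and the read length is not given in the sources used here. The counts of MYH3 and MYH8 are the least certain in this respect, because MYH6 was counted at 18341 ± 2737 CPM on PEDOT and 18607 ± 3221 CPM on PVA (SD, n = 3 each), far above either.

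ACTN3 was the one member with a substantial level, and the rest ranged from between 1 and 2 CPM down to a lone count. Levels between genes are compared as CPM per kilobase of annotated exon, averaged over the 6 sums. ACTN3 stood at 13, rank 2943 of 39687 genes with a count, and was followed by TNNI2 at 1.13, MYOD1 at 0.784 and TNNT3 at 0.582. TNNC2 at 0.349, MYOG at 0.293, MYH3 at 0.208 and MYLPF at 0.190 came next, then MYH8 at 0.0299 and MYBPC1 at 0.0004. In that order, each step between TNNI2, MYOD1 and TNNT3, and each from TNNC2 down to MYLPF, was smaller than the spread of a neighbour between replicates. The counterparts on the same scale were ACTN2 at 236, TNNI1 at 215, TNNT2 at 54.7, TNNC1 at 468, MYH6 at 2537, MYL7 at 1437 and MYBPC3 at 368. TNNI3 stood at 16.7, TNNT1 at 1.52, MYH7 at 145 and MYL2 at 217.

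**Figure D1:**
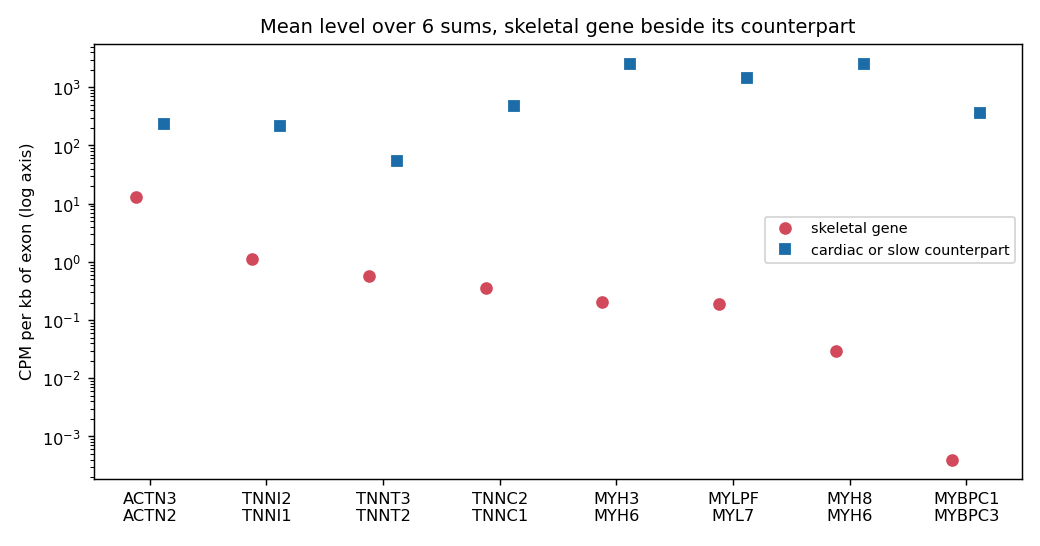
Mean level over 6 sums (CPM per kilobase of annotated exon, log axis) of 8 skeletal contractile genes (circles) beside a cardiac or slow counterpart (squares). Among the pairs drawn, ACTN3 at 13 is nearest to its counterpart, ACTN2 at 236, and MYBPC1, with 1 count in all, is farthest below. TNNI3 at 16.7 and TNNT1 at 1.52, which are not drawn, are nearer to TNNI2 at 1.13 and TNNT3 at 0.582.

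A member was called too low to measure where it did not pass the filter on low counts (filterByExpr in edgeR), and this held for MYH8 and MYBPC1. The other 8 members passed, among 21298 genes tested, but TNNC2, MYLPF and MYOG did so with 3 to 12, 1 to 12 and 6 to 17 counts per library. A difference of a few reads decides their values. Counting intervals below are exact Poisson intervals at the 95% level and cover counting error only.

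No tested member passed the test between scaffolds. In the fit with the scaffold only, though, the 95% intervals of ACTN3, TNNT3, TNNI2 and MYLPF reach past a doubling in either direction. Those of MYOG (-0.71 to 1.13) and TNNC2 (-0.81 to 1.02) do so upward only. In edgeR's quasi-likelihood test on the 6 sums, 0 of 8 passed an adjusted p of 0.05 and 0 of 8 had an unadjusted p under 0.05. Over all 21298 genes 0 (0%) passed and 0.892% had an unadjusted p under 0.05. DESeq2 also called 0 members. For all 8 the PEDOT sums overlapped the PVA sums, whereas the scaffolds did not overlap for 4.6% of all genes. The log2 fold change of PEDOT over PVA was above 0 for 5 members and below 0 for 3, with a median of 0.12 against -0.006 over all genes tested. Same-numbered sums of the scaffolds deviated together, so a second fit, blocked on replicate number, is given beside it. It called 0 of 8 members and 57 of all genes (0.268%), and 1 member, ACTN3, had an unadjusted p under 0.05, against 8.32% of all genes. With the block the 95% intervals were narrower, at 0.07 to 0.37 for ACTN3 and -0.13 to 0.87 for TNNT3. Those of TNNI2 and MYLPF were -0.51 to 0.48 and -1.71 to 0.67.

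**Figure D2:**
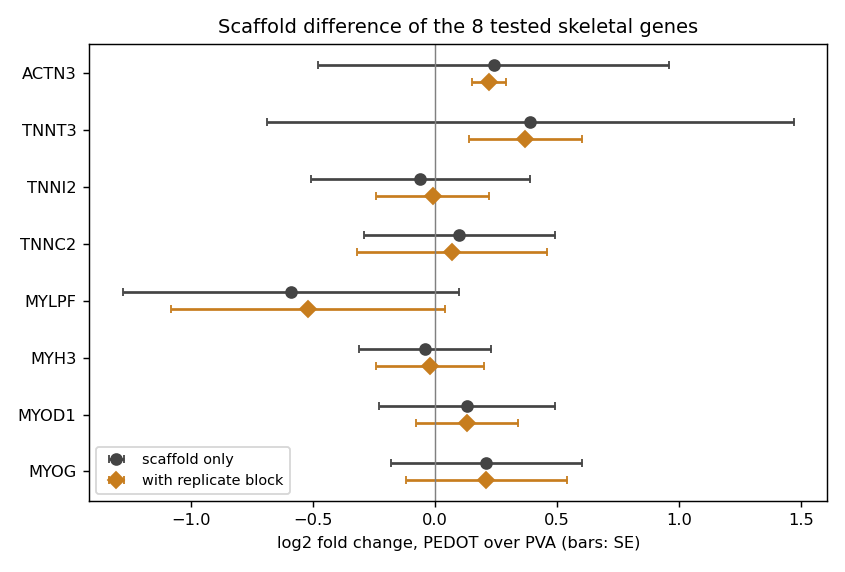
Log2 fold change of PEDOT over PVA for the 8 tested members (points, with bars of 1 standard error) from the fit with the scaffold only (circles) and from the fit blocked on replicate number (diamonds). ACTN3 was at 0.22 ± 0.07 with the block and 0.24 ± 0.72 without it, and TNNT3 at 0.37 ± 0.23 with it and 0.39 ± 1.08 without it.

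Of the developmental myosins, MYH3 was measured at a low level and MYH8 was too low to measure. MYH3 (chromosome 17, bases 10628526 to 10657309, minus strand; all coordinates are hg38) encodes the embryonic heavy chain of forming muscle fibres. Its sums held 1.27, 1.59 and 1.25 CPM on PEDOT and 1.30, 1.85 and 1.07 CPM on PVA in replicates 1, 2 and 3. The scaffolds interleave, and the 12 libraries held 21 to 44 counts. MYH3 averaged 1.37 ± 0.192 CPM on PEDOT and 1.41 ± 0.398 CPM on PVA (SD, n = 3 each), a log2 fold change of -0.04 ± 0.27 (SE) and a 95% interval of -0.69 to 0.62 (edgeR, adjusted p = 0.99998).

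MYH8 (chromosome 17, bases 10390322 to 10421950, minus strand), the perinatal heavy chain, had 53 counts in all. PEDOT libraries held 3 and 0 counts in replicate 1, 9 and 2 in replicate 2, and 11 and 9 in replicate 3. PVA libraries held 0 and 0, 4 and 3, and 7 and 5 counts. Replicate 1 was the lowest on both scaffolds, and its PVA libraries allow at most 0.140 and 0.183 CPM by counting error. MYH8 shares 30 exon bases with the antisense gene MYHAS, which had 8 counts in all, and the counting used strand. Together, MYH3 and MYH8 made up 0.009% ± 0.000495 of heavy chain transcripts per kilobase on PEDOT and 0.00865% ± 0.0014 on PVA (SD, n = 3 each), with MYH6 and MYH7 as the rest.

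The fast light chain MYLPF (listed as MYL11 in RefSeq; chromosome 16, bases 30370934 to 30377991, plus strand) had 12, 8 and 5 counts in the PEDOT sums and 17, 2 and 19 in the PVA sums. No replicate order was shared by the scaffolds. The log2 fold change was -0.59 ± 0.69 (SE), with an interval of -2.23 to 1.06 (edgeR, adjusted p = 0.99998). The technical libraries of PEDOT replicate 2 held 7 and 1 counts, which sets how little these values can carry. Its share of the 3 light chains MYLPF, MYL2 and MYL7 was 0.00883% ± 0.00429 on PEDOT and 0.0215% ± 0.0193 on PVA (SD, n = 3 each).

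TNNT3 (chromosome 11, bases 1919703 to 1938706, plus strand), the fast troponin T that anchors the complex to tropomyosin, varied most between replicates. PEDOT libraries held 3.08 and 4.19 CPM in replicate 1, 0.302 and 0.219 in replicate 2, and 1.99 and 0.877 in replicate 3. PVA libraries held 2.93 and 2.19 CPM in replicate 1, 0 and 0.228 in replicate 2, and 1.87 and 0.807 in replicate 3. On both scaffolds replicate 1 was highest and replicate 2 lowest, and the library at 0 counts allows up to 0.187 CPM. The mean over scaffolds was 3.15 CPM in replicate 1, 0.194 CPM in replicate 2 and 1.40 CPM in replicate 3, so replicate 1 was 16.2-fold above replicate 2. The technical libraries of replicate 3 differed 2.26-fold on PEDOT (46 and 21 counts) and 2.32-fold on PVA (56 and 21 counts). That is less than the gap between replicates 1 and 2, but as large as the 2.25-fold gap between replicates 1 and 3. By scaffold, TNNT3 averaged 1.79 ± 1.74 CPM on PEDOT and 1.38 ± 1.24 CPM on PVA (SD, n = 3 each), which is 0.39 ± 1.08 (SE) on the log2 scale with an interval of -2.16 to 2.93 (edgeR, adjusted p = 0.99998). It was higher on PEDOT in 3 of 3 same-numbered pairs, by 0.49, 0.81 and 0.05 on the log2 scale, and with the block it was 0.37 ± 0.23 (edgeR, adjusted p = 0.758).

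TNNI2 (chromosome 11, bases 1838981 to 1841680, plus strand), the fast inhibitory subunit that holds the thin filament off, showed another order. Its sums were 0.752, 1.31 and 1.57 CPM on PEDOT and 0.606, 1.39 and 1.77 CPM on PVA in replicates 1, 2 and 3. Replicate 1 was lowest on both scaffolds, while the scaffolds interleaved at 1.21 ± 0.420 CPM on PEDOT and 1.26 ± 0.594 CPM on PVA (SD, n = 3 each). The log2 fold change was -0.06 ± 0.45 (SE), with an interval of -1.13 to 1.01 (edgeR, adjusted p = 0.99998). The 2 libraries of PVA replicate 1 had 22 and 6 counts, a 2.81-fold difference in CPM.

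TNNC2 (chromosome 20, bases 45823214 to 45833745, minus strand), the calcium-binding subunit of fast fibres, had 23, 14 and 9 counts in the PEDOT sums and 16, 12 and 14 in the PVA sums. That is 0.422, 0.301 and 0.191 CPM on PEDOT and 0.346, 0.261 and 0.250 CPM on PVA. The scaffolds overlap, and the fitted log2 difference was 0.10 ± 0.39 (SE), with edgeR's adjusted p at 0.99998.

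The fast troponins were minor beside their slow and cardiac forms. Per kilobase, TNNT3 was 1.22% ± 1.21 of troponin T transcripts (TNNT3, TNNT2 and TNNT1) on PEDOT and 1.01% ± 0.884 on PVA (SD, n = 3 each). TNNI2 was 0.466% ± 0.149 of troponin I transcripts (TNNI2, TNNI1 and TNNI3) on PEDOT and 0.495% ± 0.209 on PVA. TNNC2 was 0.0857% ± 0.0514 of troponin C transcripts (TNNC2 and TNNC1) on PEDOT and 0.0803% ± 0.0459 on PVA. Exact two-sided permutation tests over the 20 assignments of 6 sums gave p = 0.4 to 1 for the 7 shares computed, those of the myosins, light chain, actinin and binding protein included, and all adjusted values were 1. The smallest p this design allows is 0.1, so no share could have passed.

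ACTN3 (chromosome 11, bases 66546395 to 66563334, plus strand) encodes the actinin that cross-links actin at the Z-disc of fast fibres, where ACTN2 does so in heart and in all skeletal fibres. PEDOT libraries held 14.1 and 13.8 CPM in replicate 1, 86.5 and 68.9 in replicate 2, and 64.5 and 47.1 in replicate 3. PVA libraries held 14.3 and 10.9 CPM, 60.4 and 70.6, and 50.2 and 38.7 in the same replicates. Every library of replicate 1 was below every library of replicates 2 and 3, on both scaffolds. The counts behind them were 220 to 2008, so the interval of a library was narrow, for example 12.7 to 15.7 CPM around 14.1 CPM. Technical libraries of 1 replicate differed 1.02-fold to 1.37-fold.

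By scaffold, ACTN3 averaged 48.9 ± 32.2 CPM on PEDOT and 41.3 ± 26.8 CPM on PVA (SD, n = 3 each), with a log2 fold change of 0.24 ± 0.72 (SE) and an interval of -1.46 to 1.95 (edgeR, adjusted p = 0.99998). Within same-numbered pairs it was higher on PEDOT in 3 of 3, by 0.11, 0.22 and 0.31 on the log2 scale. The fit with the block gave 0.22 ± 0.07 (SE), an interval of 0.07 to 0.37, and an unadjusted p of 0.0069, which did not pass after adjustment over all genes (edgeR, adjusted p = 0.341). ACTN3 was 5.23% ± 3.06 of actinin transcripts per kilobase (ACTN3 and ACTN2) on PEDOT and 4.65% ± 2.30 on PVA (SD, n = 3 each). That share was 1.63% to 8.58% over the libraries and averaged 1.94% in replicate 1, 7.04% in replicate 2 and 5.83% in replicate 3. ACTN2 itself averaged 1209, 1657 and 1426 CPM in replicates 1, 2 and 3. The exons of ACTN3 share 141 bases with AP002748.2 on the opposite strand, which had 2 counts in all.

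MYBPC1 (chromosome 12, bases 101568353 to 101686028, plus strand), the myosin-binding protein of slow fibres, had 1 count, in library 3 of PVA replicate 3, and 0 in the other 11 libraries. The libraries at 0 allow at most 0.123 to 0.187 CPM each by counting error. Its heart relative MYBPC3, which holds myosin heads in reserve, averaged 1670 ± 364 CPM on PEDOT and 1470 ± 372 CPM on PVA (SD, n = 3 each).

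**Figure D3:**
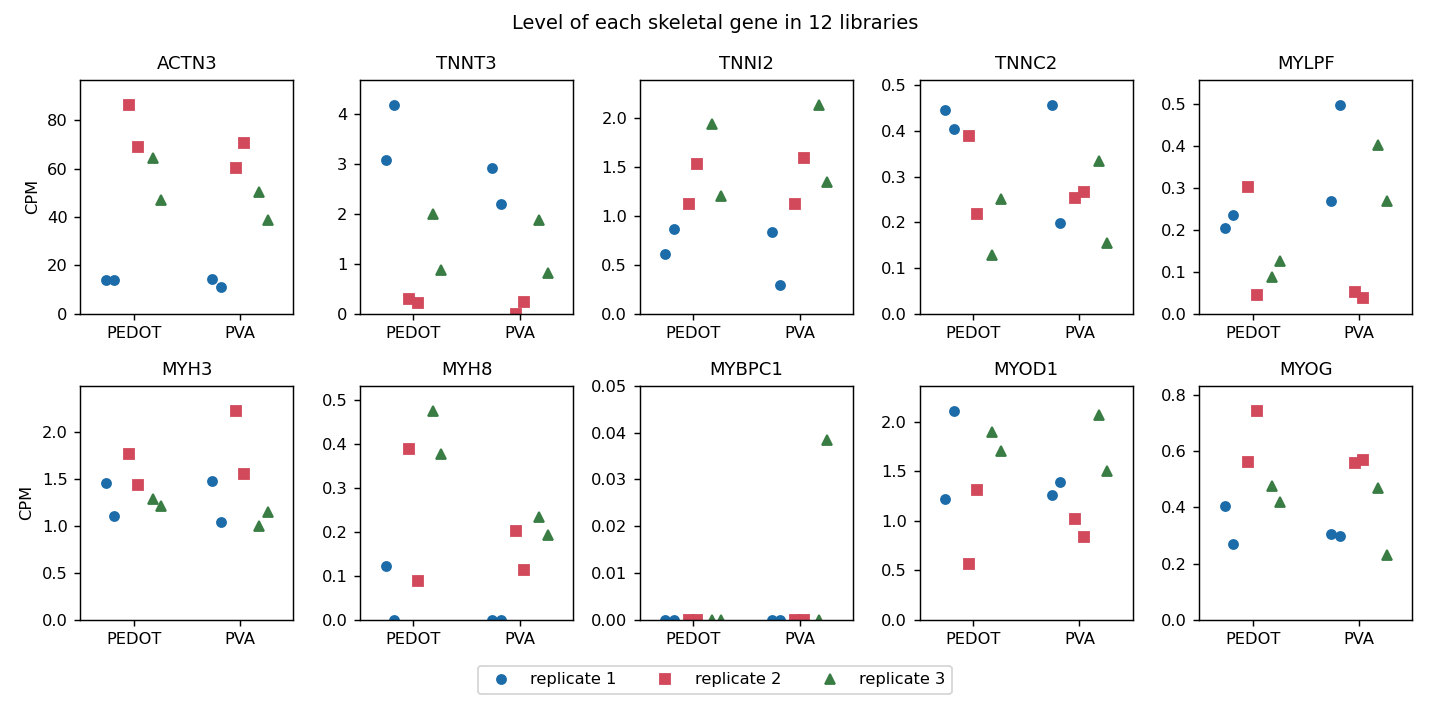
Level of each of the 10 genes (CPM, linear axes that start at 0 and differ between panels) in 12 libraries, PEDOT left of PVA, with marker shape and colour for the replicate number. Replicate 1 is lowest in all ACTN3 libraries at 10.9 to 14.3 CPM and replicate 2 lowest in all TNNT3 libraries at 0 to 0.302 CPM, on both scaffolds.

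The myogenic factors were detected in every library at low counts. MYOD1 (chromosome 11, bases 17719571 to 17722136, plus strand), which can turn other cell types into muscle when forced on, held 1.71, 0.925 and 1.81 CPM in the PEDOT sums and 1.32, 0.913 and 1.81 CPM in the PVA sums. Replicate 2 was lowest on both scaffolds and the scaffolds interleaved. MYOD1 averaged 1.48 ± 0.482 CPM on PEDOT and 1.35 ± 0.448 CPM on PVA (SD, n = 3 each), a log2 fold change of 0.13 ± 0.36 with an interval of -0.73 to 0.99 (SE; edgeR, adjusted p = 0.99998). The 12 libraries held 13 to 63 counts, and the technical libraries of PEDOT replicate 2 differed 2.34-fold, with 13 and 30 counts.

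MYOG (chromosome 1, bases 203083129 to 203086012, minus strand), myogenin, which acts after MYOD1 when myoblasts leave the cell cycle, held 0.330, 0.646 and 0.447 CPM in the PEDOT sums and 0.303, 0.565 and 0.358 CPM in the PVA sums. Each PEDOT sum was above its same-numbered PVA sum, but replicates differed by more, and the log2 fold change was 0.21 ± 0.39 with an interval of -0.71 to 1.13 (SE; edgeR, adjusted p = 0.99998). The counting interval of its lowest library, 0.0847 to 0.502 CPM in PVA replicate 3, overlaps that of its highest, 0.433 to 1.19 CPM in PEDOT replicate 2.

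Some members differed between replicate numbers, as many genes of the table did. An F test over the 3 replicate numbers, with the scaffold in the model, called 4 of 8 members (50%) against 31.8% of all 21298 genes (edgeR, adjusted p of 0.05), and with 8 genes that count says nothing particular about the members. The smallest was ACTN3 (adjusted p = 9.18e-10 in edgeR), at 13.4, 71.7 and 50.3 CPM in replicates 1, 2 and 3. TNNT3 followed (edgeR, adjusted p = 1.99e-06), then TNNI2 at 0.679, 1.35 and 1.67 CPM (edgeR, adjusted p = 0.0085) and MYOD1 at 1.51, 0.919 and 1.81 CPM (edgeR, adjusted p = 0.0312). ACTN3 and TNNI2 were called with replicate 1 lowest, as were 11.5% of all genes tested, and TNNT3 and MYOD1 with replicate 2 lowest, as were 15% of all genes tested. The fast isoforms did not share an order, and TNNT3 was highest where ACTN3 and TNNI2 were lowest. MYH3, MYOG, MYLPF and TNNC2 did not pass (edgeR, adjusted p = 0.217, 0.194, 0.317 and 0.419).

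ACTN3 and TNNT3 were called in all 21 alternatives run for the replicate number. TNNI2 was not called without replicate 1 (edgeR, adjusted p = 0.471), and MYOD1 was not called by DESeq2 (adjusted p = 0.159), without replicate 2 (0.502) or without replicate 3 (0.1, edgeR adjusted p). MYOD1 was also not called without library 1 of PEDOT replicate 2 (0.129), library 1 of PEDOT replicate 3 (0.0547), library 3 of PVA replicate 2 (0.0659) or library 1 of PVA replicate 3 (0.0838, edgeR adjusted p). MYLPF, tested in 17 of the 21, was called without library 1 of PEDOT replicate 2 (edgeR, adjusted p = 0.0359).

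Markers of other cell types also differed between replicate numbers. Fibroblast markers (DCN, LUM, COL1A1, COL1A2, PDGFRA, POSTN, TCF21 and FAP), all 8 of which were called by replicate number, summed to 2214 to 4974 CPM in libraries of replicate 1, 460 to 644 CPM in replicate 2 and 2056 to 2775 CPM in replicate 3. COL1A1 and COL1A2 made up most of that sum, and POSTN ran the other way, at 14.8, 43.2 and 17.8 CPM in replicates 1, 2 and 3. Smooth muscle markers (6 of 6 called) summed to 2360 to 2912, 1590 to 1878 and 2036 to 2717 CPM, and cardiomyocyte markers (8 of 8 called) to 19211 to 21733, 29076 to 30104 and 23187 to 27302 CPM in replicates 1, 2 and 3. MYH6 made up most of the cardiomyocyte sum, at 15281, 21117 and 19024 CPM. Of the 8 cardiomyocyte markers, 7 were lowest in replicate 1, and TNNT2, at 371, 497 and 337 CPM, was lowest in replicate 3. Endoderm markers (AFP, APOA1, TTR, FOXA2, EPCAM and ALB, 4 tested and 4 called) summed to 12.9 to 17.1, 5.11 to 6.68 and 8.65 to 11.1 CPM. TTR, which was not tested, averaged 8.86, 0 and 0.134 CPM and weighed heavily on that sum. The 4 called genes were split, with AFP and ALB lowest in replicate 2. APOA1 (1.52, 2.56 and 2.5 CPM) and EPCAM (2.14, 3.14 and 5.66 CPM) were lowest in replicate 1. TNNT3 was lowest in the replicate number with the lowest fibroblast, smooth muscle and endoderm sums, and ACTN3 in the one with the lowest cardiomyocyte sum. The heart and slow counterparts MYH7, MYL2 and TNNT1 were also lowest in replicate 2, at 527, 253 and 2.34 CPM. Of the other counterparts called by replicate number, 6 were lowest in replicate 1. The part of the marked cell types in the levels of TNNT3 and ACTN3 was not tested. In these bulk samples, fewer cells of a type and less RNA per cell cannot be told apart.

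**Figure D4:**
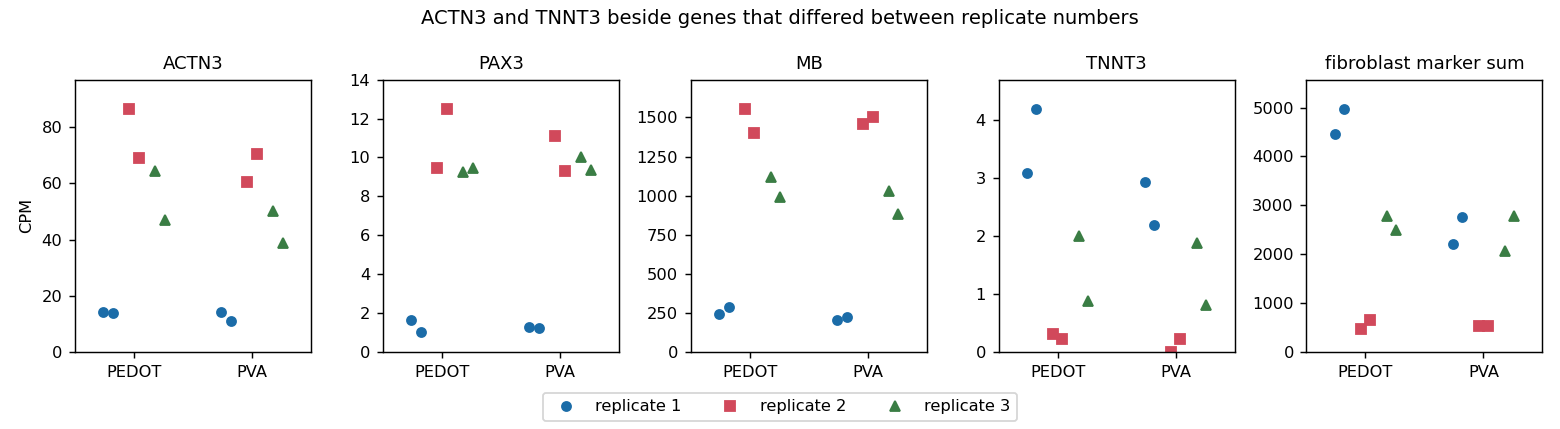
ACTN3, PAX3, MB, TNNT3 and the summed fibroblast markers (CPM, linear axes from 0 that differ between panels) in 12 libraries, PEDOT left of PVA, with marker shape and colour for the replicate number. Replicate 1 is lowest for ACTN3, PAX3 and MB, and replicate 2 is lowest for TNNT3 and the fibroblast sum.

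The genes whose log2 CPM followed ACTN3 most closely over the 12 libraries were TMEM53 (Pearson r = 0.991), MB (r = 0.986) and PLCB2 (r = 0.981). MB, myoglobin, the oxygen store of heart and muscle, averaged 240, 1476 and 1008 CPM in replicates 1, 2 and 3. The 12 points share 3 replicate numbers, so these values describe that split and have no p. No other member reached the mean of 50 counts per library set for this search.

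The heart and slow counterparts of the members were more abundant per kilobase, least so TNNT1 at 1.52 CPM per kilobase. Of the 11, 10 were called by replicate number (90.9% against 31.8% of all genes), all but TNNI1. Of these 10, 6 were lowest in replicate 1, 3 (MYH7, MYL2 and TNNT1) in replicate 2 and 1 (TNNT2) in replicate 3. By scaffold 0 of 11 were called without the block (edgeR; 0 of 11 had an unadjusted p under 0.05), with a median log2 fold change of 0.18. With the block MYH7, the heavy chain that rises as human ventricle matures, was called at 1129 ± 402 CPM on PEDOT and 614 ± 355 CPM on PVA (SD, n = 3 each; edgeR, adjusted p = 0.0382). No counterpart was called with the block by DESeq2, with upper-quartile scaling, with library size only or with a mean CPM of at least 1, nor in 8 of 12 blocked fits with a library left out and in the blocked fit without replicate 2. TNNI1, the most abundant troponin I, stood at 1640 ± 53.0 CPM on PEDOT and 1590 ± 81.5 CPM on PVA.

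Other skeletal contractile genes ranged widely in level, with ACTA1, KLHL41 and NEB the most abundant. Of 12, 9 were tested, 0 were called by scaffold (edgeR; 1 had an unadjusted p under 0.05), and the median log2 fold change was 0.17. ACTA1, skeletal actin, which immature heart also expresses, stood at 119 ± 31 CPM on PEDOT and 99.8 ± 41.1 CPM on PVA. KLHL41, which stabilises nebulin, stood at 53.7 ± 9.71 CPM on PEDOT and 56.0 ± 7.51 CPM on PVA, and NEB, nebulin itself, at 25.2 ± 4.72 CPM on PEDOT and 22.6 ± 4.69 CPM on PVA (SD, n = 3 each). The adult fast myosins MYH1, MYH2 and MYH13 had 3, 17 and 4 counts in all 12 libraries and were not tested. By replicate number 4 of 9 (44.4%, against 31.8% of all genes) were called, namely MYH4, NEB and KLHL41, lowest in replicate 1, and MYBPC2, lowest in replicate 2.

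Genes of skeletal excitation and calcium handling gave 0 of 9 calls by scaffold (edgeR; 0 with an unadjusted p under 0.05), with a median log2 fold change of 0.09. CASQ1, the calcium store protein of the fast reticulum, was the most abundant at 88.1 ± 18.2 CPM on PEDOT and 82.9 ± 24.6 CPM on PVA. TRIM72, a membrane repair protein, averaged 8.82, 2.76 and 11.6 CPM in replicates 1, 2 and 3, low in replicate 2 as TNNT3 and MYOD1 were. RYR1, the skeletal calcium release channel, averaged 2.40, 6.98 and 7.08 CPM, low in replicate 1 as ACTN3 and TNNI2 were. Both were called by replicate number, as were CASQ1, SLN and PVALB (5 of 9, 55.6%, against 31.8% of all genes). Of 8 endplate genes 4 were tested and 0 called by scaffold (edgeR; 0 with an unadjusted p under 0.05, median log2 fold change 0.10), and CHRNA1 and LRP4 (2 of 4, 50%, against 31.8% of all genes) were called by replicate number.

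Among 16 other regulators of myogenesis and fusion, PAX7 and MYF5 had 0 counts in all libraries, MYF6 had 7 and the fusion protein MYMK had 12. The 9 that were tested gave 0 calls by scaffold (edgeR; 0 with an unadjusted p under 0.05), with a median log2 fold change of -0.09. MEF2C, TCF12 and ID3, which heart also expresses, were the most abundant. By replicate number 6 of 9 (66.7%, against 31.8% of all genes) were called. PAX3, which acts upstream of MYOD1 in embryonic muscle progenitors, averaged 1.29, 10.5 and 9.55 CPM in replicates 1, 2 and 3 (edgeR, adjusted p = 1.57e-08) and was lowest in replicate 1, as ACTN3 was. ID1, ID2 and ID3, which bind the partners of MYOD1 and keep it from DNA, averaged 14, 44.4 and 25.3 CPM, 23.2, 92.4 and 53.4 CPM, and 54.7, 125 and 91.3 CPM. They were highest in replicate 2, where MYOD1 was lowest, and no relation between them was tested over these 3 replicate numbers. SIX4 and TCF3 were the other 2.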

How the data were processed

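The authors deposited 1 table of 12 libraries with raw, unscaled counts for each gene name, made with featureCounts 2.0.1 (paired-end, reversely stranded) on GENCODE release 33, per the file headers. Its command sets no option for reads that match several places. The submitters' processing notes list STAR, FastQC and featureCounts with the build hg38, and also edgeR and DESeq2. Aligner options were not given in these sources.

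The 2 technical libraries of a replicate, whose difference the labels do not state, were summed to 6 sums, 3 per scaffold. Genes passing filterByExpr (minimum count 10, minimum total 15; 21298 genes) were scaled (TMM) and tested with edgeR 4.0.16 in R 4.3.3 (quasi-likelihood, two-sided, Benjamini-Hochberg over all tested genes, threshold 0.05), with the scaffold only, with the replicate number added, and for the replicate number itself. Standard errors are the log2 fold change over the square root of F. CPM use TMM factors. Deviations of same-numbered sums correlated at 0.678, 0.703 and 0.503 and of others at -0.609 to -0.005, so the numbers were taken to pair the samples. The 3 deviations of a scaffold add to 0 for each gene, so positive same-numbered values push the others negative. The negative values are therefore no separate evidence of pairing. No label says that a number marks a shared culture, nor that replicates are separate differentiations, so p-values reflect only how these samples spread, which may be technical. DESeq2 1.42.0, other scalings and filters, and leaving out each replicate and library were alternatives.

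Members and lists were chosen with earlier results of these data known. Genes named are all 10 members, their counterparts, list genes that were called or are the 3 most abundant of their list, the 3 genes most like a member with at least 50 counts per library, and neighbours with shared exon bases. MYH1, MYH2, MYH13, MYF6 and MYMK were named after their counts were seen. Coding sequences are GENCODE release 29 transcripts, and synonyms come from RefSeq (GRCh38.p14). All symbols were found. The result of 1 marker list is not reported here.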

Additional observations from a re-analysis of the deposited data

How the results depend on the processing

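No member was called by scaffold under any of the 46 alternatives, block or no block. MYLPF was tested in only 41 of these, and TNNC2 and MYOG in 44 each, as they did not pass the filter in the rest. With a sum, pair or library left out, each log2 fold change changed sign at least once (MYLPF only in the blocked fit without replicate 3): it ranged over -0.20 to 0.21 for MYH3, -0.71 to 1.23 for TNNT3, -0.39 to 0.28 for TNNI2, -0.21 to 0.34 for TNNC2, -1.12 to 0.08 for MYLPF, -0.25 to 0.76 for ACTN3, -0.08 to 0.51 for MYOG and -0.08 to 0.41 for MYOD1. In the 15 blocked fits among these, TNNT3 (0.18 to 0.66), ACTN3 (0.14 to 0.29) and MYOG (0.09 to 0.36) kept their sign. MYH3, TNNI2, TNNC2, MYLPF and MYOD1 changed sign in blocked fits too. TNNI2 was also 0.00 with DESeq2 and 0.01 with upper-quartile scaling, each with the replicate block. Differences in share ranged over -0.000496 to 0.00106 percentage points for MYH3 plus MYH8, -0.435 to 0.763 for TNNT3, -0.143 to 0.0614 for TNNI2, -0.0243 to 0.0317 for TNNC2 and -0.666 to 2.33 for ACTN3, while MYLPF (-0.0225 to -0.00327) and MYBPC1 (-0.000548 to 0) did not change sign. The lone count of MYBPC1 was on PVA, so its difference could not be above 0.

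Genes called over the whole table were 0 without the block in every alternative and 57 with it. With the block they were 97 by DESeq2, 1 with upper-quartile scaling, 55 with DESeq2 size factors, 37 with library size only, 389 with every gene with a count and 14 with a mean CPM of at least 1 (combinations chosen after seeing the data), and 4 to 284 over the blocked fits that leave a sample out. Of the counterparts, 1 was called with the block, 1 with DESeq2 size factors and the block, 3 with every gene and the block, 0 in the other 4 blocked settings, and 0 to 4 with a sample left out (0 in 9 of 15 blocked fits). Of the other contractile genes, 2 were called with every gene and the block and 0 to 2 with a sample left out. Of the excitation genes it was 1 by DESeq2 and 1 with every gene, each with the block, and 0 to 1 with a sample left out. List medians with a sample left out were 0.01 to 0.28 (contractile), -0.24 to 0.12 (excitation), -0.07 to 0.46 (endplate) and -0.17 to 0.19 (regulators). Genes called by replicate number were 3020 without replicate 2 and up to 6743 with another sample left out. The block changed no call of a member. The causes were not tested. Depth limits MYH8, MYBPC1, MYLPF, TNNC2 and MYOG to a few reads per library.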
